A study of Drosophila melanogaster with 15 samples.

Results

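The genes described here encode 10 proteins of synaptic vesicle fusion and recycling: Syt1, nSyb, Syx1A, Snap25, cpx, Rop, comt, Csp, Syn and shi. They were chosen as a named list and matched by symbol to the 17558 genes of a raw count table, and all 10 matched 1 gene each. RNA-seq of photoreceptor nuclei was carried out on male flies (Drosophila melanogaster) of 5 ages after eclosion, namely day 10, day 20, day 25, day 30 and day 40, to follow the expression of photoreceptor neurons while vision declines. All 5 groups carried the same transgenes and differed in age alone: UAS-GFP-Msp300KASH at attP2, which places green fluorescent protein on the outside of the nucleus, and rh1-GAL4, which drives it in the outer (R1 to R6) photoreceptors, in a w background with a ry allele. The labels call this genotype WT. Tagged nuclei were pulled out of homogenised heads, and the study found that the driver is also active in the antennae, so mechanosensory nuclei can be present. The 14 libraries used are 3 per age and 2 at day 30. Replicate numbers below are those of the column names.

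At a chemical synapse, vesicles filled with transmitter dock at the presynaptic membrane and fuse with it when calcium enters. Fusion is driven by a bundle of SNARE proteins, with synaptobrevin (nSyb) on the vesicle and syntaxin (Syx1A) and SNAP-25 on the plasma membrane. Synaptotagmin (Syt1) is the calcium sensor, complexin (cpx) binds the assembled bundle, and afterwards the bundle is taken apart and the membrane is retrieved. Fly photoreceptors release histamine from their axon terminals in the lamina and medulla, and they release it tonically, so their terminals depend on continued vesicle turnover.

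All 10 genes were expressed at high levels in the purified nuclei. Their raw counts were 619 to 83164 per library, and together they held 1.34 to 1.51% of all gene counts at day 10, 1.23 to 1.30% at day 20, 1.17 to 1.31% at day 25, 1.11 to 1.21% at day 30 and 1.04 to 1.20% at day 40. The share was lower in each of the 3 day 40 libraries than in each of the 3 day 10 libraries. Library depth was 6213255 to 19819118 gene counts. At that depth the smallest level that 3 counts can show is 0.151 to 0.483 CPM (read pairs per 1000000 pairs counted on genes), far under every value of these genes, and that floor covers counting error only.

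Levels between genes were compared per kilobase of summed exon length, as CPM per kilobase over the 14 libraries (mean ± SD). The highest were cpx at 413 ± 67.1, nSyb at 396 ± 47.5, Syt1 at 320 ± 80.2 and Syn at 315 ± 69.0. The dynamin gene shi followed at 199 ± 36.9, below Syn in 14 of 14 libraries. Snap25 stood at 112 ± 13.9 and Csp at 73.0 ± 10.7, each below the gene before it in 14 of 14 libraries. The lowest were comt at 45.1 ± 7.63, Rop at 41.4 ± 5.56 and Syx1A at 41.0 ± 4.91. Several neighbours in this order did not differ beyond their spread: cpx exceeded nSyb in 8 of 14 libraries, Syt1 exceeded Syn in 6, and Rop exceeded Syx1A in 8. The means and SDs pool all ages, so they include changes with age. At day 10 alone Syt1 was at 369 to 513 and nSyb at 322 to 426 CPM per kilobase. Even Syx1A, the lowest, had a mean CPM per kilobase above 89.5% of the 10449 tested genes that have an annotated length.

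The genes differ in structure and lie apart in the genome. Coordinates are those of BDGP6.54. Snap25 (FBgn0011288, 3L, 24074180 to 24299205) spans 225026 bp with 2282 bp of exon. Syn (FBgn0004575, 3R, 10190689 to 10222442), Syt1 (FBgn0004242, 2L, 2772327 to 2799979), cpx (FBgn0041605, 3R, 4280221 to 4304604) and shi (FBgn0003392, X, 15892116 to 15906716) span 31754, 27653, 24384 and 14601 bp. The other 5 are compact: nSyb (FBgn0013342, 3L, 1630348 to 1637752) with 7405 bp, Csp (FBgn0004179, 3L, 22267382 to 22273745) with 6364 bp, Syx1A (FBgn0013343, 3R, 24101600 to 24105763) with 4164 bp, comt (FBgn0000346, X, 13259021 to 13262488) with 3468 bp and Rop (FBgn0004574, 3L, 4136359 to 4138996) with 2638 bp. The annotation lists 21 transcripts for cpx and 15 for shi, against 2 for Snap25, comt and Rop, and the counts used here pool the transcripts of a gene.

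Age was tested first over the whole course, by fitting age and its square to every tested gene. Of the 10 genes, 4 passed an adjusted p of 0.05 in edgeR's quasi-likelihood test, and all 4 were lower at day 40: Syt1, cpx, Csp and Snap25. Over all 10678 tested genes 8.35% passed, and 3.44% passed with a lower level. In the direct comparison of day 40 with day 10, 6 of the 10 passed, all 6 lower, with comt and shi added to those 4. The background there was 10.4% in either direction and 4.64% lower. The median log2 change from day 10 to day 40 was -0.46 over the 10 genes and 0.01 over all tested genes. The changes were moderate, from -0.78 in Syt1 to 0.24 in nSyb, and 9 of 10 were below 0, against 49.4% of all tested genes. The count moved with single libraries, as did the calls over all genes. Of the 10 genes, Syt1 alone passed at day 40 without day 10 replicate 1, day 40 replicate 2 or day 40 replicate 3, where 587, 771 and 559 genes passed in all against 1112 with every library. Without day 10 replicate 2 or day 40 replicate 1, 2 of the 10 passed, and 542 and 982 in all. Over the 14 fits that left out 1 library, the log2 changes kept their sign in all 10 genes. The narrowest ranges were from -0.59 to -0.44 in cpx and from -0.48 to -0.41 in Csp. Syt1 ran from -0.89 to -0.66. The widest were from -0.60 to -0.30 in Syn and from -0.305 to -0.01 in Rop. With the log2 ratio of read pairs on no annotated feature to gene counts as a covariate, 0 of 10 passed at day 40 (edgeR, 1 at an unadjusted p under 0.05), where 197 of all 10678 tested genes passed, and 2 passed in the age test, Syt1 and Csp, where 436 of all genes passed. In that fit the day 40 change was -0.48 in comt and -0.38 in Csp, and it shrank to -0.38 in Syt1 and -0.22 in cpx. The ratio was 42.4 to 56.4 per 100 gene counts at day 40 and 60.7 to 103 at day 10, and age and ratio cannot be told apart in the day 40 libraries. At day 30 it was 112 in both libraries, above every day 10 library. The median log2 change of the 10 genes from day 10 to day 30 was -0.48.

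**Figure D1:**
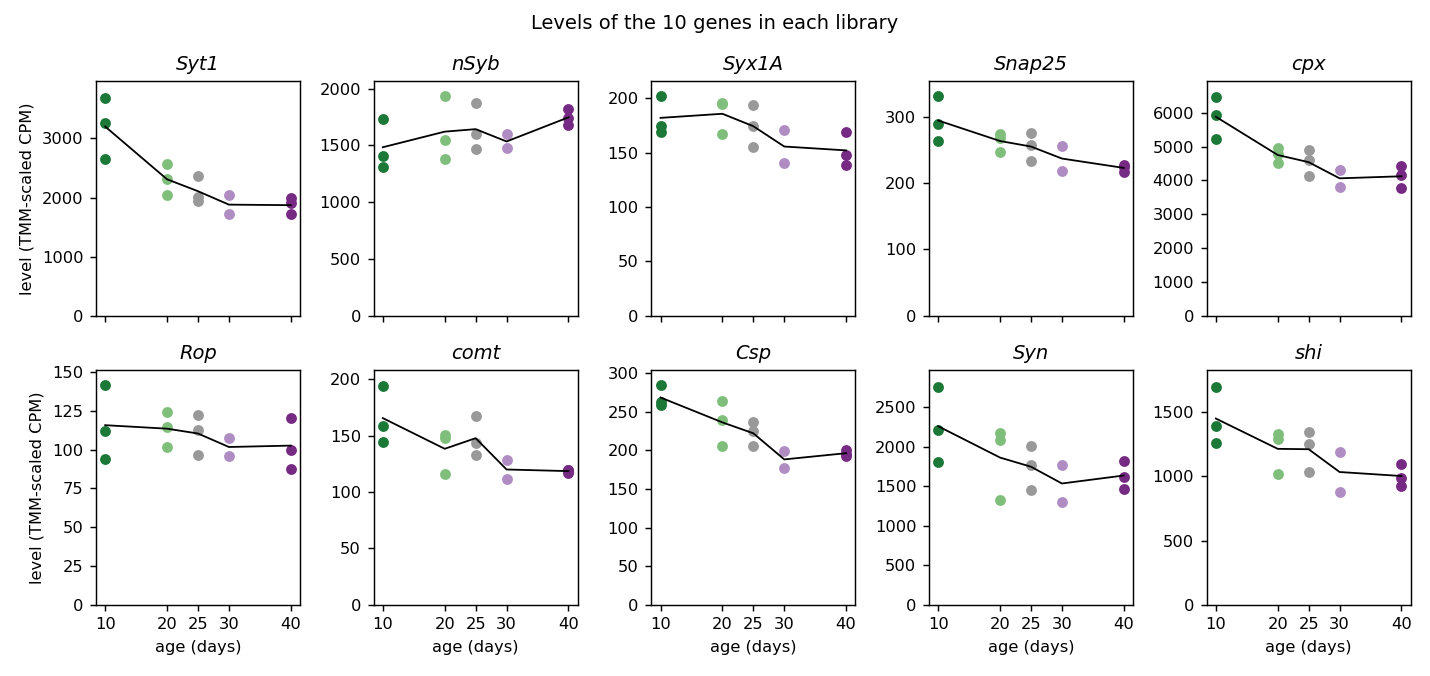
Level of each of the 10 genes by age in days (x axis) as TMM-scaled CPM (y axis, from 0), with a point per library and a line through the mean of each age. Syt1, cpx, Csp, Snap25, comt and shi have every day 40 library below every day 10 library, and nSyb alone has a higher mean at day 40.

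Syt1 encodes the vesicle protein whose C2 domains bind calcium and trigger fast release. It fell most of the 10. Its level was 3267, 3685 and 2654 CPM in day 10 replicates 1, 2 and 3, then 2050, 2568 and 2310 CPM at day 20, 2005, 1948 and 2370 CPM at day 25, 2043 and 1718 CPM at day 30, and 1999, 1714 and 1901 CPM at day 40. All 11 libraries past day 10 lay below the lowest day 10 library. Mean levels were 3202 ± 519 CPM in the youngest flies and 1871 ± 145 CPM in the oldest (SD over 3 libraries each), a difference of -0.78 ± 0.15 on the log2 scale (SE; adjusted p = 0.004 in edgeR). In the age test the adjusted p of Syt1 was 0.00151, and it stayed under 0.05 in 24 of 24 alternatives, with values from 4.71e-08 to 0.015.

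The complexin gene cpx encodes a small protein that lies along the SNARE bundle and both restrains spontaneous fusion and promotes evoked fusion in Drosophila. Its level was 5948, 6473 and 5224 CPM at day 10, 4518, 4948 and 4791 CPM at day 20, 4116, 4611 and 4892 CPM at day 25, 4314 and 3810 CPM at day 30, and 4435, 4156 and 3776 CPM at day 40. As for Syt1, no later library reached the lowest day 10 value. From day 10 to day 40 cpx changed by -0.51 ± 0.13 on the log2 scale (SE, n = 3 each, edgeR adjusted p = 0.021), and the adjusted p in the age test was 0.0138. The call of cpx in the age test was kept in 21 of 24 alternatives.

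Of the 3 neuronal SNAREs, 1 passed at day 40, Snap25, and differences between the 3 changes were not tested. On the plasma membrane side, Snap25 encodes the SNARE that brings a pair of helices to the bundle. Snap25 was at 332, 289 and 263 CPM at day 10, 268, 275 and 248 CPM at day 20, 233, 276 and 257 CPM at day 25, 256 and 219 CPM at day 30, and 228, 225 and 217 CPM at day 40. The day 40 libraries were close to each other and below all those of day 10, and days 20 and 25 overlapped day 10. Its log2 change was -0.40 ± 0.12 (SE, n = 3 each, edgeR adjusted p = 0.0407). In the age test Snap25 was at the threshold (adjusted p = 0.0494), and only 7 of 24 alternatives kept it under 0.05.

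Syx1A, the plasma membrane syntaxin, did not pass. It was at 174, 202 and 169 CPM in the day 10 libraries and at 169, 148 and 139 CPM in those of day 40, with overlap at 169. Syx1A had a log2 change of -0.26, with a 95% interval from -0.54 to 0.02 (edgeR adjusted p = 0.237), and the adjusted p in the age test was 0.231. The gene shares 447 bp of exon with eIF4EHP on the same strand, and read pairs that fall on both genes count for neither.

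nSyb encodes the neuronal synaptobrevin of the vesicle, which is the target of tetanus toxin. It was the single gene of the 10 with a higher mean at day 40. It was at 1736, 1404 and 1311 CPM at day 10, 1937, 1550 and 1376 CPM at day 20, 1464, 1869 and 1596 CPM at day 25, 1473 and 1596 CPM at day 30, and 1680, 1817 and 1744 CPM at day 40. Every age overlapped day 10, and day 10 replicate 1 lay within the day 40 range. For nSyb the log2 change was 0.24, with a 95% interval from -0.08 to 0.55 (edgeR adjusted p = 0.352), and the adjusted p in the age test was 0.611. nSyb passed in none of the 24 alternatives of the age test, where its adjusted p was 0.219 to 0.843, and its change stayed above 0 in all 23 alternatives of the day 40 comparison.

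Because nSyb marks the same vesicles as Syt1, the ratio of CPM between them was described for each library, with no test. Syt1 over nSyb was 1.88 to 2.62 at day 10, 1.06 to 1.68 at day 20, 1.04 to 1.49 at day 25, 1.08 to 1.39 at day 30 and 0.943 to 1.19 at day 40. The ratio of Snap25 to nSyb went from 0.191 to 0.206 at day 10 down to 0.124 to 0.135 at day 40, and that of cpx to nSyb from 3.43 to 4.61 down to 2.16 to 2.64. For all 3 ratios the day 10 and day 40 ranges did not overlap. Syt1, cpx and Snap25 themselves did not overlap between these ages, and nSyb had a higher mean at day 40. The separation of the ratios is therefore largely given by those levels, and its share over all genes was not computed. The ratio of Syx1A to nSyb was 0.100 to 0.144 at day 10 and 0.0794 to 0.101 at day 40, and these ranges met at their ends.

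**Figure D2:**
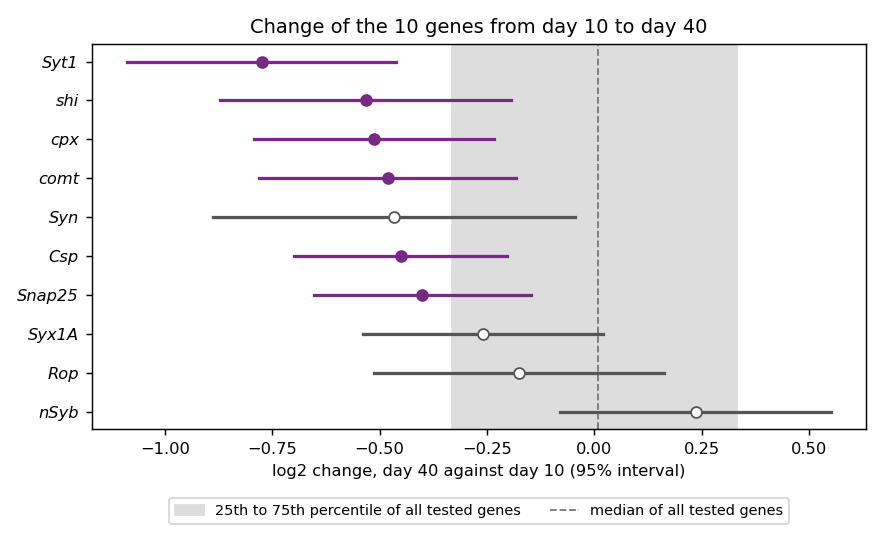
Log2 change from day 10 to day 40 of the 10 genes (x axis) with 95% intervals from edgeR. Filled points passed an adjusted p of 0.05, the shaded band runs from the 25th to the 75th percentile of all 10678 tested genes, and the intervals of Syx1A, Rop and nSyb include 0.

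Among the proteins that prepare and take apart the SNARE bundle, Csp and comt were lower at day 40 and Rop did not pass. Csp encodes cysteine string protein, a vesicle co-chaperone of the DnaJ family that works with Hsc70 and keeps SNAP-25 competent for fusion, as known from flies and mice. It is one of the genes the study names as lower with age in these libraries, so its call is not independent evidence. Csp was at 263, 284 and 259 CPM at day 10, 240, 264 and 206 CPM at day 20, 205, 236 and 225 CPM at day 25, 199 and 177 CPM at day 30, and 200, 196 and 193 CPM at day 40. All libraries of days 25, 30 and 40 lay below the lowest of day 10. For Csp the log2 change was -0.45 ± 0.12 (SE, n = 3 each, edgeR adjusted p = 0.0219), and the adjusted p in the age test was 0.0196, kept in 22 of 24 alternatives.

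comt (comatose) encodes NSF, the ATPase that pulls used SNARE bundles apart. It was at 194, 144 and 158 CPM at day 10, 148, 151 and 116 CPM at day 20, 143, 168 and 133 CPM at day 25, 111 and 129 CPM at day 30, and 117, 120 and 119 CPM at day 40. Days 20 and 25 overlapped day 10, and days 30 and 40 did not. Its log2 change was -0.48 ± 0.14 (SE, n = 3 each, edgeR adjusted p = 0.0388). In the age test comt was not past the threshold (adjusted p = 0.0693), and 5 of 24 alternatives brought it under 0.05.

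Rop encodes the Drosophila member of the Sec1/Munc18 family, which binds syntaxin. It was at 141, 93.8 and 112 CPM in the day 10 libraries and 121, 100 and 87.2 CPM in those of day 40. The day 10 libraries spread over almost the whole range of the 14. Rop had a log2 change of -0.18, with a 95% interval from -0.51 to 0.16 (edgeR adjusted p = 0.545), and the adjusted p in the age test was 0.653. Without day 10 replicate 1 the change of Rop was -0.01.

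The genes of vesicle clustering and membrane retrieval were both lower at day 40, shi past the threshold and Syn short of it. Syn encodes synapsin, a phosphoprotein that tethers vesicles of the reserve pool. It was at 2212, 2754 and 1808 CPM at day 10, 1324, 2084 and 2177 CPM at day 20, 1774, 1454 and 2010 CPM at day 25, 1766 and 1302 CPM at day 30, and 1823, 1460 and 1622 CPM at day 40. Day 40 replicate 1 was above day 10 replicate 3, so these ages overlapped. The log2 change was -0.47 with a 95% interval from -0.89 to -0.04 (unadjusted p = 0.0322, edgeR adjusted p = 0.151), and the spread between replicates was the widest of the 10 genes, with an SE of 0.20. Syn passed in none of the 24 alternatives of the age test.

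shi (shibire) encodes dynamin, the GTPase that cuts endocytic vesicles from the membrane. It was at 1393, 1698 and 1256 CPM at day 10, 1016, 1331 and 1293 CPM at day 20, 1249, 1034 and 1348 CPM at day 25, 1187 and 879 CPM at day 30, and 1096, 925 and 984 CPM at day 40. Days 30 and 40 lay below all of day 10, and days 20 and 25 overlapped it. The log2 change was -0.53 ± 0.16 (SE, n = 3 each, edgeR adjusted p = 0.0428), and the adjusted p in the age test was 0.0551. Of 24 alternatives, 8 gave shi an adjusted p under 0.05 in the age test.

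**Figure D3:**
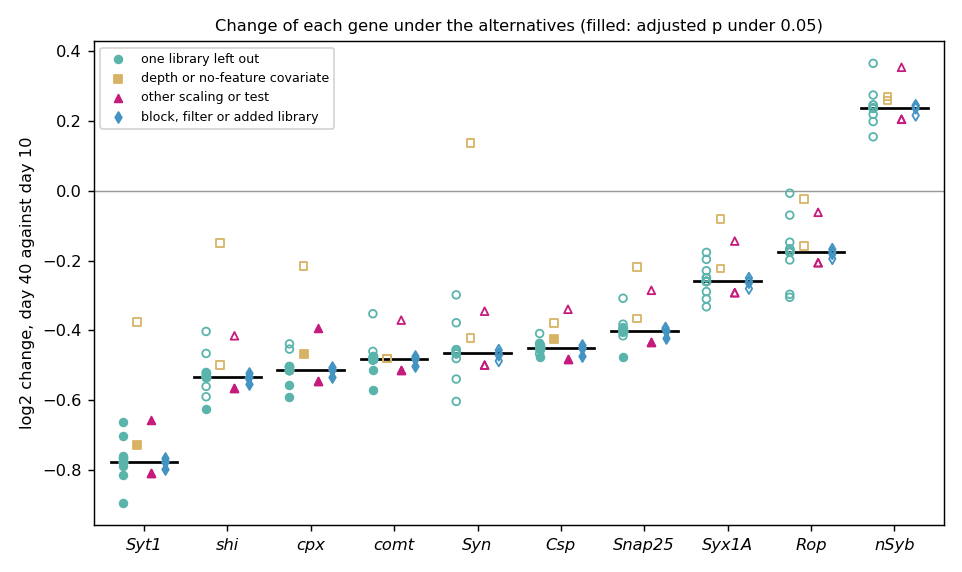
Log2 change from day 10 to day 40 of each gene (y axis) under each alternative, by kind of alternative (colour and shape), with a black line at the reported value and filled symbols where the adjusted p was under 0.05. Syt1 runs from -0.89 to -0.38 over its 23 alternatives, and the single change of side is that of Syn with the no-feature covariate (0.14).

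The intermediate ages were compared with day 10 to place the change in time. These comparisons share the day 10 libraries, so their values stand side by side and are not independent. At day 20, 0 of 10 genes passed (edgeR; 0.00937% of all tested genes passed), 2 had an unadjusted p under 0.05 against 8.1% of all genes, and DESeq2 also gave 0. At day 25, 0 of 10 passed against 0.974% of all genes, with 3 at an unadjusted p under 0.05 against 14.3%. With DESeq2, 2 of the 10 passed at day 25, as did 397 of all 10678 tested genes. At day 30, 1 of 10 passed, against 0.871% in either direction and 0.3% lower, and 7 had an unadjusted p under 0.05 against 13.7% of all tested genes. That gene was Syt1 (log2 change -0.77, adjusted p = 0.0439), which passed in 4 of the 14 fits that left out 1 library: without day 10 replicate 3, day 20 replicate 1, day 20 replicate 2 or day 40 replicate 3; 0 of 10 genes passed in the other 10 fits (edgeR, 4 to 7 at an unadjusted p under 0.05). Between the last pair of ages, day 30 and day 40, 0 of 10 passed in edgeR or DESeq2 against 1.11% of all genes, 0 had an unadjusted p under 0.05 against 9.96%, and the changes lay between -0.09 and 0.19.

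The median log2 change of the 10 genes against day 10 was -0.22 at day 20, -0.23 at day 25, -0.48 at day 30 and -0.46 at day 40. Over all tested genes these medians were 0.00, 0.00, 0.03 and 0.01. Of the fall to day 40, Syt1 had reached 60.9% by day 20 and 99.1% by day 30, and cpx 60.0% by day 20. Snap25 had reached 39.9% by day 20 and 78.0% by day 30, and Csp 40.9% and 113%. No error was computed for these shares. The number of genes with every library below every day 10 library was 2 at day 20 (Syt1 and cpx), 3 at day 25 (with Csp), 7 at day 30 and 6 at day 40. Over all tested genes 5.77, 9.1, 13.7 and 12.9% had these ages wholly below day 10. Day 30 has 2 libraries, and groups of 2 separate more easily than groups of 3. Syn was below day 10 in both day 30 libraries and overlapped it at day 40.

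The levels of most of the 10 genes were positively correlated between libraries. Pearson's r of log2 CPM over the 14 libraries was above 0 in 37 of 45 pairs, with a median of 0.58 and a range from -0.59 to 0.955. These values describe libraries that share age, depth and scaling, and no test was made. The pairs with the highest r were Syt1 with cpx (0.955), Syn with shi (0.94) and Syt1 with shi (0.91). nSyb had an r below 0 with 7 of the other 9 genes and of -0.27 with their mean, where Snap25, Csp and cpx had 0.91 each.

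When the mean of each age was subtracted, the median r of the 45 pairs was 0.335, with 31 above 0, and 2 sets are described that were chosen after these values were seen. Syt1, cpx, Syn and shi varied together within ages (r from 0.66 to 0.97 over 6 pairs), led by Syn with shi (0.97). With library size as the only scaling, r within ages was 0.36 for cpx with Syn and 0.41 for cpx with shi, in place of 0.66 and 0.67. nSyb, comt and Rop formed the other set (0.45 to 0.78 over 3 pairs). Between the sets r was -0.61 to 0.03 over 12 pairs, 11 of them below 0. The other 3 genes belonged to neither set. Syx1A had an r within ages of 0.65 with Syt1, 0.64 with cpx and 0.66 with shi, against -0.10 with nSyb and -0.31 with comt. Snap25 had an r of 0.64 with nSyb, 0.60 with cpx and 0.14 with shi, and Csp one of 0.54 with cpx and 0.11 with Rop. The no-feature ratio moved with the first set: within ages, its log2 value had an r of 0.72 with Syt1, 0.79 with cpx, 0.66 with Syn and 0.58 with shi, against 0.07 with nSyb, -0.02 with comt and 0.21 with Rop. With log2 library depth, r within ages was below 0 for all 10 genes, and further below 0 in the first set than in the second. It was -0.82 for cpx, -0.50 for Syt1, -0.33 for shi and -0.31 for Syn. In the second set it was -0.235 for nSyb, -0.175 for Rop and -0.00567 for comt. Snap25, Syx1A and Csp, in neither set, had -0.59, -0.57 and -0.52. The part of the ratio and of depth in the changes with age was not tested beyond the covariate fits.

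**Figure D4:**
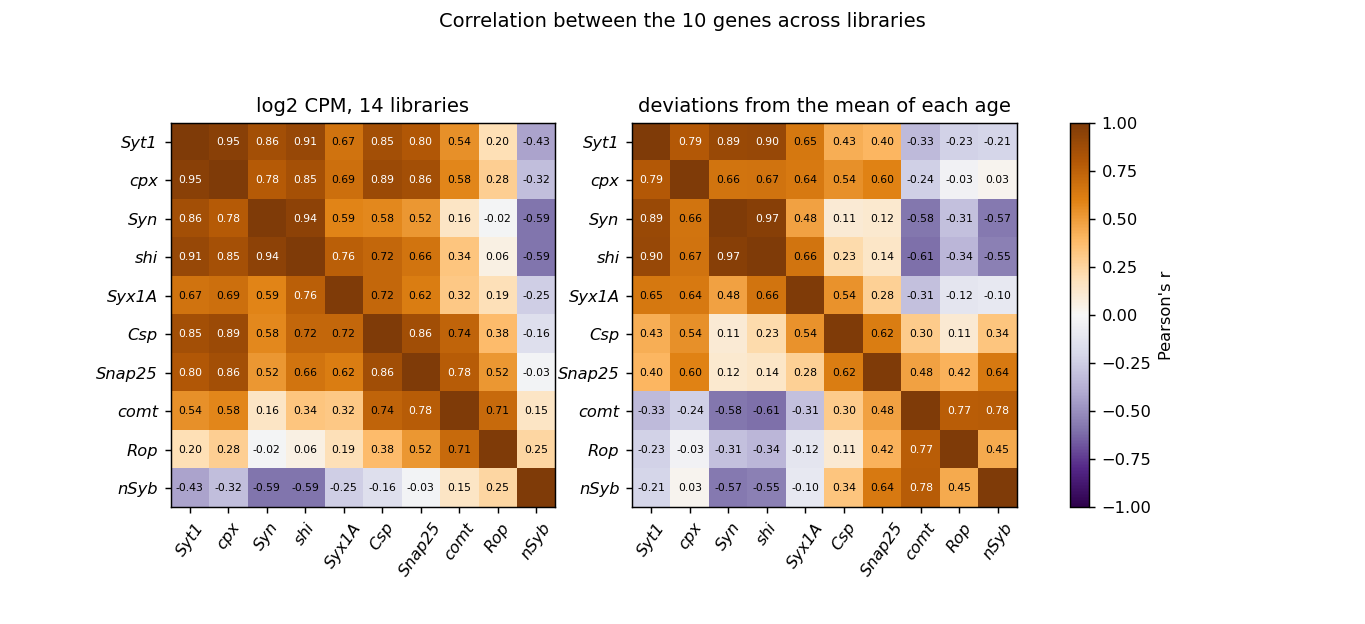
Pearson's r between the 10 genes over 14 libraries, for log2 CPM (left) and for deviations from the mean of each age (right), on a colour scale from -1 to 1. On the right, Syt1, cpx, Syn and shi form a block of 0.66 to 0.97 and comt, Rop and nSyb one of 0.45 to 0.78.

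Genes close to the 10 in the genome were read out because shared starts or overlap can mix their signals. Rop and Ras64B, a Ras family GTPase gene, start 80 bp apart on opposite strands. Ras64B overlapped between day 10 and day 40 and did not pass, with a log2 change of 0.30 (edgeR adjusted p = 0.339). Timp, a metalloproteinase inhibitor gene nested in Syn on the other strand with 249 bp of shared exon positions, did not pass (-0.33, adjusted p = 0.2). Neither did eIF4EHP, a cap-binding translation repressor gene that overlaps Syx1A (-0.24, adjusted p = 0.285). Nepl11, nested in cpx on the other strand, passed at day 40 (-0.64, adjusted p = 0.0398) and not in the age test (adjusted p = 0.41). The counting used strand, and no exon position is shared between cpx and Nepl11. The remaining neighbours, mew, CG11523, CG15742, mir-929 and 3 noncoding genes beside or inside cpx, Snap25 and Syt1, did not pass or were too low to test.

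None of the 3 paralogs passed in edgeR. Snap24, the close relative of Snap25, was at 27.0, 27.6 and 27.5 CPM at day 10 and 35.3, 41.1 and 35.0 CPM at day 40. The groups did not overlap, but the log2 change of 0.44 ± 0.16 (SE, n = 3 each) missed the threshold (edgeR adjusted p = 0.0828, and 0.0576 in the age test). Syb, the synaptobrevin of general secretion, was at 9.72 to 10.7 CPM at day 10 and 13.3 to 19.6 CPM at day 40, with a log2 change of 0.57 (adjusted p = 0.109). Nsf2, the relative of comt, was at 33.3 to 35.5 CPM at day 10 and 32.7 to 38.6 CPM at day 40 (0.03, adjusted p = 0.929). Whether paralogs shared reads was not tested.

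The rest of the pathway was described with 6 lists of 79 matched genes, of which 77 could be tested. In the day 40 comparison 2 were higher, 6 lower and 69 did not pass, with a median log2 change of -0.17. With 10.4% of all tested genes past the threshold in either direction, 8 of 77 is no more than the background. The counts in single lists below are to be read against the same 10.4%. Among all tested genes 4.64% were lower and passed, beside the 6 of 77 here. A change below 0 was seen in 49 of the 77, against 49.4% of all tested genes, and these differences were not tested. Among 10 other synaptotagmin and C2 domain genes, 1 passed, Syt7, a synaptotagmin of slower calcium responses in mammals (-0.51, adjusted p = 0.0231). Of 17 other SNARE genes, most of which act inside the cell rather than at the synapse, 1 passed, and it was higher: Syx16, a Golgi syntaxin (0.91, adjusted p = 0.0123). The median over those 17 was 0.23.

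Of 9 other SNARE chaperones and handling genes, Hsc70-4 rose and Tomosyn fell. Hsc70-4 encodes the partner chaperone of Csp, and its log2 change was 0.83 ± 0.16 (SE, n = 3 each, edgeR adjusted p = 0.00439). It is another gene that the study names from these libraries. It was at 1046, 870 and 853 CPM at day 10 and 1377, 1508 and 2033 CPM at day 40, so the chaperone pair moved in opposite directions. Tomosyn, an inhibitor of SNARE assembly, fell by 0.71 (adjusted p = 0.00594).

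Of 19 endocytosis and coat genes, 2 passed, both lower: nwk, an F-BAR protein of the synaptic terminal (-0.66, adjusted p = 0.00355), and EndoA, endophilin (-0.48, adjusted p = 0.0327). The synaptojanin gene Synj, which acts with EndoA to uncoat vesicles, did not pass (0.22, adjusted p = 0.298). Both stoned genes, stnA and stnB, had 0 counts in all 14 libraries. Read pairs that fall on 2 genes count for neither, and whether this applies to stnA and stnB was not tested. Their counts therefore do not show whether they are expressed. Of 13 other vesicle protein and transporter genes, 2 were lower at day 40: Sap47, a synapse-associated protein gene (-0.66, adjusted p = 0.00233), and VGAT, a vesicular GABA transporter (-0.74, adjusted p = 0.0375). The study also names Sap47. lovit, the histamine transporter of photoreceptor vesicles, passed in the age test (adjusted p = 0.0405) and not at day 40 (-0.84, adjusted p = 0.0636). It was chosen for mention after its values were seen. Of 9 active zone genes, 0 passed (edgeR) in either comparison, with a median of -0.31 at day 40, and brp, the main scaffold protein, was at 0.07 (adjusted p = 0.816).

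The genes most like the 10 were ranked by Pearson's r between log2 CPM and the mean of the 10 standardised profiles, over 14 libraries and 10668 other tested genes. The first 5 were Snx27 (r = 0.94), Sap47 (0.94), a gene known here only as FBgn0058178 (0.93), p120ctn (0.92) and Atpalpha, the sodium pump subunit (0.91). In that order, their log2 changes from day 10 to day 40 were -0.46, -0.66, -0.69, -0.43 and -0.61. They were picked by likeness to a profile that falls with age in the same libraries. Lower levels at day 40 are therefore largely given by the choice and are no separate result. The study itself names Atpalpha as lower with age. The mean profile itself was highest in day 10 replicates 1 and 2 (1.35 and 1.07 standard deviations) and lowest in day 30 replicate 2 (-1.04) and day 40 replicate 3 (-0.93). Day 10 replicate 3, at 0.27, stood nearer to the day 20 and day 25 libraries (-0.23 to 0.67) than to the other day 10 libraries.

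Markers of the labelled cells and of others were measured in the same libraries, since every neuron uses these 10 genes. The 10 photoreceptor markers summed to 81568 to 123741 CPM at day 10 and 101270 to 147978 at day 40. The study cites expression of Arr2, inaD, trp and trpl, which are among them, in the auditory organ. Their sum is therefore not one of outer photoreceptors alone. The Rh1 gene ninaE did not pass (log2 change 0.46, edgeR adjusted p = 0.172). Hdc, the histamine synthesis enzyme and the 1 photoreceptor marker of 10 that passed, was lower (-0.59, adjusted p = 0.0179). The study also names Hdc as lower with age in these libraries, so its call is not independent evidence. Inner photoreceptor rhodopsins summed to 3572 to 8012 CPM at day 10 and 5333 to 10449 at day 40. The 4 pan-neuronal markers summed to 5928 to 6848 CPM at day 10 and 4561 to 4816 at day 40, and 1 of them, nrv3, passed (-0.70, adjusted p = 0.0089). Most of both sums was nrv3, with means of 3969 CPM at day 10 and 2443 at day 40. elav was at 653 to 731 CPM at day 10 and 497 to 575 at day 40 and did not pass. brp and fne overlapped between these ages, and the mean of brp was higher at day 40. Markers of neurons with other transmitters were detected too. The 7 summed to 603 to 1185 CPM at day 10 and 664 to 856 at day 40, none at 0, with Gad1 and VGAT lower and ple higher. Over the 14 libraries VGlut, Vmat and Hdc had means of 320, 313 and 296 CPM. Among the other markers of neurons with other transmitters the highest mean was that of Gad1, at 85.4 CPM. These values are not scaled to gene length, so they do not rank the genes.

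The 6 mechanosensory markers summed to 28.5 to 44.8 CPM at day 10 and 20.2 to 29.6 at day 40, with 1 marker at 0 in all day 10 libraries. The 5 glial markers summed to 506 to 673 CPM at day 10 and 464 to 522 at day 40, with 2 of 5 lower at day 40, and 4 muscle markers to 205 to 459 and 506 to 685, with 2 of 4 higher. The 6 fat body markers summed to 77.3 to 154 and 119 to 357 CPM, with Yp1 and Yp2, 2 of 4 tested, higher. The other tested markers did not pass. Yp3, the largest part of the sum, overlapped between day 10 (47.2 to 113 CPM) and day 40 (85.5 to 257 CPM). Lsp2 went the other way, from 23.1 to 40.9 CPM at day 10 to 14.4 to 22.9 CPM at day 40. Yp1 was at 7.89, 0.944 and 57.3 CPM in the day 40 libraries and at 53.8 CPM in day 30 replicate 2. Yp2 was at 2.53, 0 and 28.2 CPM in the day 40 libraries and overlapped day 10 (0 to 0.657 CPM). Day 40 replicate 3 and day 30 replicate 2, the libraries high in Yp1, are also those with the lowest mean profile of the 10 genes. The 3 haemocyte markers summed to 118 to 206 and 134 to 154 CPM, with 0 of 3 passing in edgeR. The part of other cells in the changes of the 10 genes was not tested. In such bulk libraries, fewer nuclei of a type and less RNA in each nucleus cannot be told apart.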

How the data were processed

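Nuclear RNA of tagged photoreceptor nuclei was sequenced in pairs. Per the paper's methods, Trimmomatic was used for trimming, bowtie-2 and Tophat for alignment to BDGP6, and Htseq-count for strand-specific counting of pairs by gene. The deposited raw counts cover 17558 genes and 15 libraries, and 5 HTSeq summary lines (77.6 to 87.7% of each column total in the libraries used) stayed out of library sizes and tests. The deposited table of filtered counts (7635 genes, all 10 members among them) served as an alternative gene set, and the authors' CPM table was not used. Day 30 replicate 3, discarded by the study, was left out. Columns numbered 1 and 2 were assigned by age only, because titles and descriptions number them differently. The labels name biological replicates without tying them to separate harvests of flies, so p-values measure the spread between these libraries.

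The 10678 genes that exceeded 1 CPM in 3 or more of the 14 libraries entered quasi-likelihood tests (edgeR 4.0.16, R 4.3.3), with TMM scaling and Benjamini-Hochberg adjustment over all tested genes at 0.05. The age test used linear and squared age, with its direction taken from the fitted day 40 against day 10. Contrasts came from a fit with a mean per age, and the SE is the log2 change over the root of F. CPM in the text is TMM-scaled, and its log2 was taken with 2 as prior count. The tests were checked on simulated counts. Pathway and marker lists asked for 132 symbols, of which 124 matched. Members, lists and tests were chosen with earlier results of these data known. Named genes were the members, list genes past 0.05 in both the age test and day 40 against day 10 (up to 4 a list), paralogs, neighbours within 1000 bp of a start or overlapping, and the 5 most similar genes. Models came from Ensembl 115 (BDGP6.54) for 17252 genes. Alternatives were DESeq2 size factors, library size alone, DESeq2 1.42.0, 2 other filters, the replicate block, the added library, 2 covariates, a straight line in age, and each library left out.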

Additional observations from a re-analysis of the deposited data

Results flagged for a closer look

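The library discarded by the study, day 30 replicate 3, holds 518520 gene counts and entered only the alternative that adds it back. It is given here because it holds signal for all 10 genes above the 3 counts taken as the floor, with no explanation. Its counts were 1149 for Syt1, 874 for nSyb, 95 for Syx1A, 119 for Snap25, 2418 for cpx, 55 for Rop, 67 for comt, 131 for Csp, 903 for Syn and 570 for shi. On CPM of gene counts without further scaling, nSyb, Rop, comt, Syn and shi lay within the range of the other 2 day 30 libraries. Syt1 (2216 against 1894 to 2129), cpx (4663 against 4200 to 4495), Syx1A (183 against 155 to 178) and Csp (253 against 196 to 208) lay above it, and Snap25 (230 against 241 to 266) below. No group had 4 or more libraries, so no library was tested for standing apart within its age.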

How the results depend on the processing

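Over the 23 alternatives of each gene, the log2 change from day 10 to day 40 kept its direction and its side of the threshold in 184 of 230 results, lost the threshold in 45 and changed sign in 1, Syn with the no-feature ratio as a covariate (0.14). Library size alone moved the median of all tested genes to 0.11, from 0.01, and gave 2 genes past the threshold in the age test and 2 at day 40, cpx and Syt1 in both. Over all tested genes 890 and 1094 passed there, against 892 and 1112 with TMM scaling. With the no-feature ratio, 2 genes passed in the age test, 5 at day 30 and 0 at day 40 (edgeR, 1 at an unadjusted p under 0.05). Of all tested genes 436, 499 and 197 passed in these fits. With depth (log2) as the covariate 3 passed at day 40, beside 908 of all tested genes. The DESeq2 test gave 2 genes at day 25 and 3 at day 30. With no filter on low counts, or with day 30 replicate 3 included, 1 gene, Syt1, passed at day 25. In these fits 460 of 15204 and 122 of 10780 tested genes passed. The cause of these differences was not tested.

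Leaving out each library gave 1 to 5 genes in the age test, 0 to 0 at day 20, 0 to 1 at day 25, 0 to 2 at day 30, 1 to 6 at day 40 and 0 to 0 from day 30 to day 40. Without a day 30 library, the other is assumed to vary like the other ages. In the age test 1 gene passed without day 10 replicate 2 and 2 without day 10 replicate 1, where 472 and 532 of all tested genes passed. Replicate numbers gave no sign of pairing: over 26 pairs of same-numbered libraries, the correlation of deviations from age means had a median of -0.03 (-0.16 to 0.13). The replicate block gave 3 genes in the age test, 0 at day 30 (edgeR, 7 at an unadjusted p under 0.05) and 3 at day 40. Over all tested genes 676, 36 and 863 passed with it. With the length of the longest transcript the levels of cpx, nSyb and shi were 487, 451 and 250 CPM per kilobase, in the same order. With library size alone the median correlation of the 45 pairs was 0.393, against 0.58.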
